A study of Mus musculus with 9 samples.

Results

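The KLF genes encode transcription factors with C-terminal zinc fingers that bind GC-rich and CACCC sequences, and the 10 members described here are Klf2, Klf3, Klf4, Klf5, Klf6, Klf7, Klf9, Klf10, Klf12 and Klf13. They were chosen by name, each was matched by its Ensembl identifier among the 47643 genes of the count files, and 9 of the 10 had enough reads to be tested among 14105 genes. KLF proteins share their DNA-binding fingers and differ in the rest of the protein, which recruits coactivators in Klf2, Klf4, Klf5, Klf6 and Klf7, the corepressor CtBP in Klf3 and Klf12, and the corepressor Sin3a in Klf9, Klf10 and Klf13. In epithelia, Klf4 is known for cell cycle exit and differentiation and Klf5 for the proliferating compartment, and both are studied in pancreatic cancer. Many KLF genes are also induced quickly by growth factors, TGF-beta, glucocorticoids or mechanical stress, and some are among the genes that respond when a tissue is dissociated.

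The libraries were made from sorted PDAC cells of 2 mouse models and compared PDAC cells with and without Yap, the coactivator that PDAC tumors depend on. All mice carried Trp53 frt/+, Pdx-Flp and R26 FSF-CreER/Dual, so Flp recombinase under the Pdx1 promoter removed the frt allele of Trp53 and turned on GFP in the pancreas. Mice of both groups received tamoxifen feed once tumors had formed with Yap in place, which activates CreER and replaces GFP by tdTomato (Tm). KPYYF mice also carried Yap flox/flox, which CreER deletes. The groups were GFP+Yap+ cells of KPF tumors (6 libraries: 4269, 4435, 4504h, 4504s, 4515 and 4601) and Tm+Yap- cells of KPYYF tumors (3 libraries: 4449, 4891 and 4938). Libraries are named by the mouse number of the labels, and 4504h and 4504s share 1 number. Libraries 4504h and 4504s were counted separately in the main tests, means and SDs, though they may not be independent. The labels give no age, sex or time on tamoxifen for single libraries. Per the study, the Tm+Yap- cells came from nodules that had relapsed on tamoxifen, while GFP+ cells are cells that kept the unswitched reporter. The Yap allele, relapse, the reporter switch and its colour change together, so they cannot be told apart, and p values measure only the spread between these libraries.

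Gene reads per library were 8264587 to 9635514 in KPF and 8116539 to 8725132 in KPYYF. Levels are given as CPM, counts scaled to a common library total with TMM factors, and since 3′ end libraries count 1 end per transcript, no length correction was made. Yap1, the targeted gene, ranged from 41.8 to 151 CPM in KPF and was 0.712, 2.84 and 7.12 CPM in KPYYF libraries 4449, 4891 and 4938 (log2 fold change -4.79, adjusted p = 0.0159, edgeR quasi-likelihood, Benjamini-Hochberg), so its level went with the labels in all 9 libraries. Of 12 ductal epithelium markers, 11 were lower on average in KPYYF, where 53.3% of all genes tested were. Their median log2 fold change was -2.48, against -0.07 over all genes. Of these markers, 3 passed the adjusted threshold, which 1.1% of all genes did. Immune markers were detected in all libraries and stood highest in KPF library 4601, where the 14 genes summed to 9729 CPM against 506 to 1582 CPM in the other 5 KPF libraries and 441 to 814 CPM in KPYYF. Xist reads numbered 71 to 159 in KPF libraries 4269, 4515 and 4601 and 3452 to 16108 in the other 6 libraries.

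No KLF gene passed an adjusted p of 0.05, and Klf5 and Klf6 had the largest falls by estimate. By the quasi-likelihood test of edgeR, with p values adjusted by Benjamini-Hochberg over the 14105 genes, 0 of 9 members passed, where 1.1% of all genes did (155 of 14105). The DESeq2 Wald test and limma-voom also called 0 of the 9, where they called 8.49% and 0.617% of all genes. At an unadjusted p of 0.05, Klf5 and Klf6 were lower in KPYYF, which is 2 of 9 members where 10% of all genes were, and no member was higher. With a change of more than 2-fold added, Klf5 alone was lower, 1 of 9 against 9.2% of all genes. By the same rule 0 of 9 were higher, against 4.2%. These are the cutoffs of the study's methods, applied here to the edgeR fit, while the study used DESeq2. No member separated the groups without overlap, where 9.1% of all genes did. By direction, 8 of 9 members had a log2 fold change under 0, against 53.3% of all genes, and the median was -0.55 against -0.07 over all genes. The members were chosen with earlier results of these data known, so this count and median are a description and were not tested. The plot of differences shows that the 95% intervals of 7 of the 9 members include 0.

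**Figure D1:**
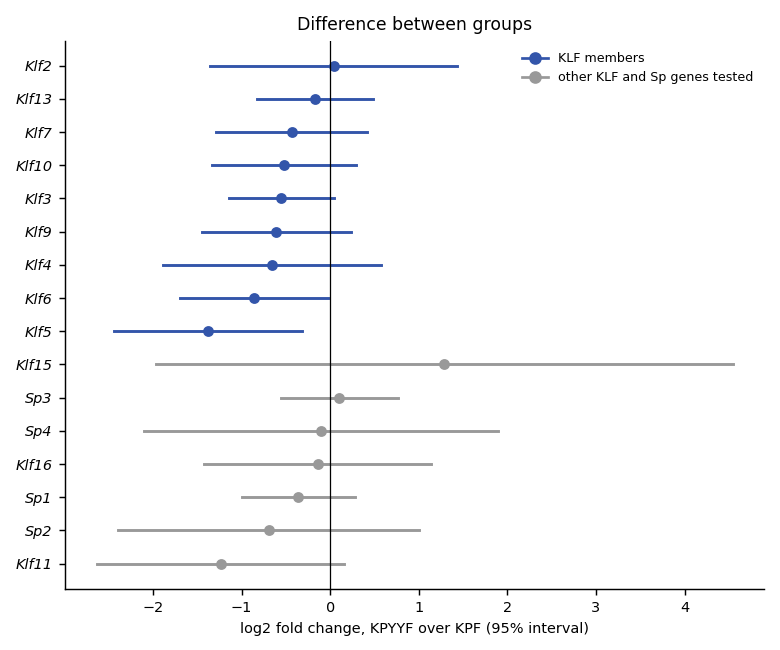
Log2 fold change of KPYYF over KPF (horizontal axis) for each tested KLF gene (blue) and each other tested KLF or Sp gene (grey), with 95% confidence intervals of edgeR's quasi-likelihood fit as lines. The intervals of Klf5 (-2.44 to -0.32) and Klf6 (-1.69 to -0.02) lie under 0, and all others include 0.

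Summed over the 9 detected members, the KLF level in TMM-scaled CPM was lower in all 3 KPYYF libraries than in any KPF library. The sum was 2548 to 4636 CPM in KPF with a median of 2971 CPM, highest in library 4515 and lowest in 4504h. In KPYYF it was 2530 CPM in library 4449, 1720 CPM in 4891 and 1623 CPM in 4938. KPYYF library 4449 stood just under the lowest KPF library, and this separation depended on the scaling: without TMM factors the sum was 2395 CPM in KPF library 4601 and 2625 CPM in KPYYF library 4449, so the groups overlapped. Without Klf6, the sum was 1415 to 2790 CPM in KPF, with 1350, 1358 and 1152 CPM in KPYYF libraries 4449, 4891 and 4938. These sums are a description and were not tested, and in bulk RNA fewer cells of a type and less RNA per cell cannot be told apart.

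RefSeq promoter sequences, 250 bases before to 50 bases after the gene start on GRCm38.p6, matched 8 of the 10 members (all but Klf5 and Klf10). Those of Klf6 and Klf4, the most abundant members, and of Klf2, the most variable member, are printed below, 5′ to 3′ on the gene's strand. They lie at chr13:5861239-5861538 on the plus strand for Klf6, chr4:55532426-55532725 on the minus strand for Klf4 and chr8:72318812-72319111 on the plus strand for Klf2. Capitals mark the matches, on either strand, of 4 motifs. The GC box has the letters GGGCGG and is a sequence that KLF and Sp proteins are known to bind. The CACCC box, spelled by its name, is also known as a KLF binding sequence. The core of the cAMP response element (CRE) has the letters TGACG, and the CCAAT box, spelled by its name, is a common promoter element.
Klf6: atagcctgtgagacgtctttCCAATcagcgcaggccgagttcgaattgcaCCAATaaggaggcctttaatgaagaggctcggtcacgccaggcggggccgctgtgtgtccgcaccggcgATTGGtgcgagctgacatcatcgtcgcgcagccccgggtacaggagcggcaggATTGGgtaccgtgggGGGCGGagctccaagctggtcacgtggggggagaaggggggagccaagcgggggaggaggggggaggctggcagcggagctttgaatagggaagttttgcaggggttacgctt
Klf4: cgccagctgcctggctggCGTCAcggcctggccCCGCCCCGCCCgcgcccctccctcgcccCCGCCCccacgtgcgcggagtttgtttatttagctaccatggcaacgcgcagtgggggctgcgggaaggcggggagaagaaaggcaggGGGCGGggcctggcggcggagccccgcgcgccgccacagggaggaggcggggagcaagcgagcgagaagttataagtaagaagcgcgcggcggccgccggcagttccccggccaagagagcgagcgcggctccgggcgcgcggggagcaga
Klf2: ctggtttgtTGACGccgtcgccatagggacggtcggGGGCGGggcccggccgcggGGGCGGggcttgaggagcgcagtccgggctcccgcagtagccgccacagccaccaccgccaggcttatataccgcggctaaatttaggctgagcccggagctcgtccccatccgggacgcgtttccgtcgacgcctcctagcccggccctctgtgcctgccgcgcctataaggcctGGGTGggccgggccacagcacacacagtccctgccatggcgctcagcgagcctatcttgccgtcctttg
The Klf6 promoter has 4 CCAAT boxes and 1 GC box, that of Klf4 has 4 GC boxes and 1 CRE core, and that of Klf2 has 2 GC boxes, 1 CACCC box and 1 CRE core.

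The GC box was found in 6 of the 8 promoters and in 35.7% of all 32851 promoters of the same length. The CACCC box was found in 6 of 8 against 57.5%, and the CRE core in 6 of 8 against 20.8%. The CCAAT box was found in 3 of 8 (Klf6, Klf9 and Klf13) against 37.4%. The TEAD motif GGAATG, of the factors through which Yap acts, was found in 1 of 8, the promoter of the undetected Klf12, against 14.7%. The Klf12 window, at chr14:100149747-100150046, is placed at a RefSeq start inside the gene as GENCODE annotates it. The Klf7 window, at chr1:64121340-64121639, also lies wholly inside its GENCODE gene. The MEF2 core, with the letters TATTTATA, was found in 0 of 8 members' promoters and in 1.70% of all. The AP-1 site, searched as TGACTCA, was also found in 0 of 8, against 5.20% of all. GC box and CACCC box matches on opposite strands can share bases, as they do in Klf3 and Klf13, and the GC content of the members' windows was 45.7% (Klf12) to 76.7% against a median of 52.7% over all promoters. A match is only a description of the letters in this window.

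Klf5 (ENSMUSG00000005148, chr14:99298691-99315036, plus strand, mm10), an activator of proliferating epithelial cells, had the largest change by estimate. Its level in KPF was 163 CPM at the lowest, 219 CPM at the median and 540 CPM at the highest, and it was 182, 47.6 and 105 CPM in KPYYF libraries 4449, 4891 and 4938. KPF libraries 4515 and 4435 were high, KPYYF libraries 4891 and 4938 lay below all KPF libraries, and KPYYF library 4449 lay inside the lower part of the KPF range. The means were 291 ± 152 CPM (SD, n = 6) and 112 ± 67.5 CPM (SD, n = 3). The difference was 2.60-fold lower in KPYYF, a log2 fold change of -1.38 ± 0.49 (SE, 95% interval -2.44 to -0.32) with an adjusted p of 0.181 (edgeR quasi-likelihood, Benjamini-Hochberg; unadjusted 0.0149). The exact two-sided permutation test over all 84 assignments of the library labels gave p = 0.0357, where the smallest it can give is 0.0119. Without KPYYF library 4891 the log2 fold change was -1.02 and the unadjusted edgeR p rose to 0.0656. Ductal markers varied in the same libraries, and their part in the Klf5 level was not tested: without Spp1, which took most of the sum in library 4449 and was set aside after its values were seen, they summed to 3879 to 12671 CPM in KPF, highest in library 4515, and to 2342, 680 and 908 CPM in KPYYF libraries 4449, 4891 and 4938.

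Klf6 (ENSMUSG00000000078, chr13:5861482-5870394, plus strand), a broadly expressed activator known as an early response gene of wounded tissue, was the most abundant KLF transcript in 7 of the 9 libraries, all but KPF library 4601 and KPYYF library 4891, where Klf4 was higher. It ranged from 816 to 1846 CPM in KPF with a median of 1103 CPM. In KPYYF it was 1180 CPM in library 4449, 361 CPM in 4891 and 470 CPM in 4938. The latter 2 libraries lay below every KPF library, while 4449 lay above the KPF median. The means were 1217 ± 371 CPM (SD, n = 6) and 671 ± 445 CPM (SD, n = 3). Klf6 had a log2 fold change of -0.86 ± 0.39 (SE, 95% interval -1.69 to -0.02) with an adjusted p of 0.292 (edgeR quasi-likelihood, Benjamini-Hochberg; unadjusted 0.0446), and the exact permutation p was 0.0595. The value depended on single KPYYF libraries: it was -1.55 without library 4449 (adjusted p = 0.0542), -0.56 without 4891 and -0.66 without 4938. As with Klf5, the KPYYF library with the highest level was 4449. Its Yap1 level was the lowest of all libraries, on 6 reads against 26 and 65 in 4891 and 4938. A relation of Yap1 to these KLF levels was not tested.

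Klf4 (ENSMUSG00000003032, chr4:55527143-55532466, minus strand), a differentiation factor of epithelia and a pluripotency reprogramming factor, was the second KLF gene by mean level in both groups. In KPF it was 215 CPM at the lowest, 499 CPM at the median and 947 CPM at the highest, and KPYYF libraries 4449, 4891 and 4938 had 135, 524 and 382 CPM. The KPF libraries fell apart into 4269, 4435 and 4504h at 215 to 292 CPM and 4504s, 4515 and 4601 at 705 to 947 CPM, with KPYYF libraries 4891 and 4938 in the gap between. Libraries 4504h and 4504s, of the same mouse number, were on different sides of this gap. Klf4 had a log2 fold change of -0.66 ± 0.56 (SE, 95% interval -1.89 to 0.57; adjusted p = 0.625, edgeR quasi-likelihood, Benjamini-Hochberg), which became -0.28 with KPYYF library 4449 left out and -1.08 with 4891 left out. KPYYF library 4449, low for Klf4, was high for Klf5 and Klf6, so the KPYYF library that was closest to KPF by the latter genes was the farthest from it by Klf4.

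Klf2 (ENSMUSG00000055148, chr8:72319033-72321656, plus strand), known for its induction by blood flow in endothelium and for quiescence of T cells, had the widest spread of the members and no change by estimate. It ranged from 13.8 CPM in KPF library 4269 to 222 CPM in KPF library 4601, a 16.1-fold range, with a KPF median of 128 CPM. KPYYF libraries 4449, 4891 and 4938 had 213, 63.5 and 104 CPM, inside the KPF range. The means were 124 ± 68.5 CPM (SD, n = 6) and 127 ± 77.4 CPM (SD, n = 3), with a log2 fold change of 0.04 ± 0.63 (SE, adjusted p = 0.987, edgeR quasi-likelihood, Benjamini-Hochberg). The 95% interval, -1.36 to 1.43, leaves room for a change of more than 2-fold either way. Library 4269 also had the lowest sum of immediate early and dissociation genes, 6326 CPM against 8748 to 14207 CPM in the other 8 libraries. Its sums of endothelial (30.2 CPM), fibroblast (421 CPM) and acinar markers (71.2 CPM) were the lowest of all libraries as well. Without library 4269 the log2 fold change of Klf2 was -0.20. Library 4601, the highest for both Klf2 and Klf4, was the library with the highest immune markers. Without 4601 the log2 fold change was 0.29 for Klf2 and -0.41 for Klf4. Endothelial markers summed to 30.2 to 135 CPM in KPF and 52.8 to 57.0 CPM in KPYYF. Of these 12 markers, 10 were tested and none passed the adjusted threshold, which 1.1% of all genes did. The part of any of these lists in the Klf2 level was not tested.

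**Figure D2:**
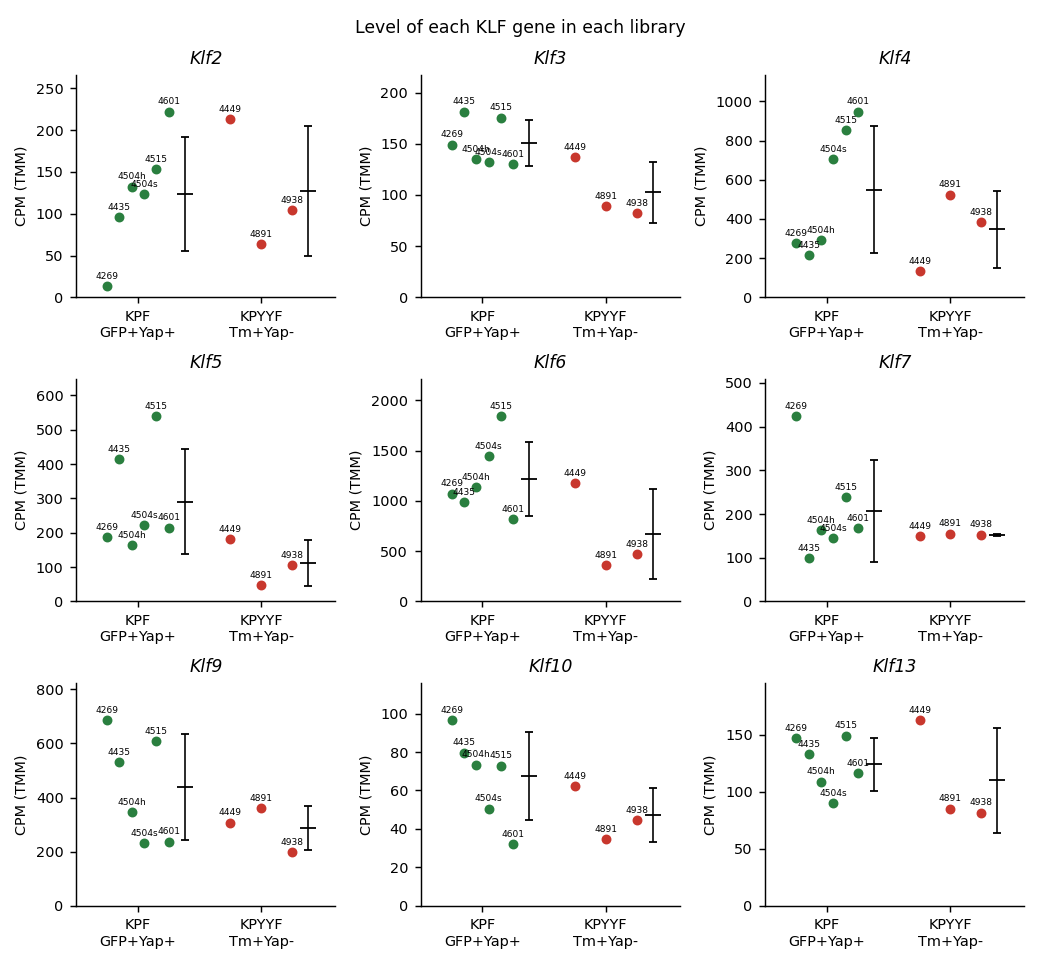
Level of each detected KLF gene in CPM (vertical axes, starting at 0) in the 6 KPF libraries (green) and 3 KPYYF libraries (red). Each point is a library with its mouse number, the bar beside them is the mean with its SD, and the groups overlap in all 9 genes.

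Klf7 (ENSMUSG00000025959, chr1:64029447-64122282, minus strand), an activator known from neurons and fat cell precursors, stood out by its even level in KPYYF. Its level was 150, 155 and 153 CPM in libraries 4449, 4891 and 4938, a 1.03-fold range, against 99.2 to 424.5 CPM in KPF with a median of 166 CPM. The mean of 207 ± 116 CPM (SD, n = 6) in KPF was raised by library 4269, and the mean of KPYYF was 153 ± 2.48 CPM (SD, n = 3). Klf7 had a log2 fold change of -0.44 ± 0.40 (SE, adjusted p = 0.653, edgeR quasi-likelihood, Benjamini-Hochberg), and it was -0.09 without library 4269 and 0.18 when only the 3 KPF and 3 KPYYF libraries with high Xist were used. A difference of spread was not tested.

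Among the members that recruit CtBP, Klf3 was detected in all libraries and Klf12 in none. Klf3 (ENSMUSG00000029178, chr5:64803388-64832901, plus strand) had 130 to 181 CPM in KPF with a median of 142 CPM, and 137, 88.8 and 82.6 CPM in KPYYF libraries 4449, 4891 and 4938. Its KPF values were the tightest of the members, within 1.40-fold, and again 4891 and 4938 lay below all of them while 4449 lay inside. The means were 151 ± 22.7 CPM (SD, n = 6) and 103 ± 29.7 CPM (SD, n = 3). The log2 fold change was -0.55 ± 0.27 (SE, 95% interval -1.14 to 0.04; adjusted p = 0.348, edgeR quasi-likelihood, Benjamini-Hochberg), and the exact permutation p was 0.0476. The transcript C230096K16Rik lies on the same strand inside the start of Klf3 and had 127 to 624 reads of its own. Whether it changed the Klf3 count was not tested. Klf12 (ENSMUSG00000072294, chr14:99870632-100284679, minus strand), also known as a repressor of the AP-2alpha gene, had 0 reads in all 9 libraries, which allows up to 3 reads in each, or 0.292 to 0.437 CPM, for counting error alone.

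Among the members that recruit Sin3a, Klf9, a glucocorticoid and thyroid hormone responsive gene (ENSMUSG00000033863, chr19:23141226-23168134, plus strand), had the highest level. It was 232 to 686 CPM in KPF with a median of 438 CPM, and 307, 360 and 199 CPM in KPYYF libraries 4449, 4891 and 4938. KPF libraries 4269, 4515 and 4435 lay above all KPYYF libraries and the other 3 lay among them. Klf9 had a log2 fold change of -0.61 ± 0.39 (SE, 95% interval -1.45 to 0.23; adjusted p = 0.484, edgeR quasi-likelihood, Benjamini-Hochberg). Klf10 (ENSMUSG00000037465, chr15:38291463-38300706, minus strand), the TGF-beta inducible early gene, was the lowest of the 9 by mean in both groups, at 32.2 to 96.7 CPM in KPF with a median of 73.2 CPM, and at 62.5, 34.6 and 44.5 CPM in KPYYF libraries 4449, 4891 and 4938. All 3 KPYYF values were below the KPF median, and the highest and lowest Klf10 levels of KPF were in libraries 4269 and 4601. The log2 fold change of Klf10 was -0.52 (standard error 0.38, adjusted p = 0.548). Klf13 (ENSMUSG00000052040, chr7:63886351-63938915, minus strand), a regulator of the chemokine Ccl5 in T cells, had 89.9 to 149 CPM in KPF with a median of 124 CPM, and 163, 85.3 and 81.6 CPM in KPYYF libraries 4449, 4891 and 4938. For Klf13, KPYYF library 4449 was the highest of all 9 libraries and the other KPYYF libraries were the lowest, and the log2 fold change was -0.17 ± 0.30 (SE, adjusted p = 0.844).

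Ordered by mean level, KPF cells had Klf6, Klf4, Klf9, Klf5, Klf7, Klf3, Klf13, Klf2 and Klf10, and KPYYF cells had Klf6, Klf4, Klf9, Klf7, Klf2, Klf5, Klf13, Klf3 and Klf10. In KPF the ranges of all neighbours in this order overlapped. In KPYYF the ranges were apart only between Klf9 and Klf7 and between Klf3 and Klf10. Within libraries the order was steadier for some pairs: Klf9 was above Klf5, and Klf3 above Klf13, in 6 of 6 KPF libraries. For other pairs it was not: Klf4 was above Klf9 in 3 of 6 and Klf13 above Klf2 in 2 of 6 KPF libraries. In KPYYF, Klf13 was above Klf3 in 1 of 3 libraries. Klf5 moved from rank 4 in KPF to rank 6 in KPYYF, but its level there lay within the spread of its neighbours.

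The makeup of the KLF reads varied from library to library within both groups. Klf6 took 28.3 to 45.9% of the KLF CPM in KPF and 46.7, 21.01 and 29.0% in KPYYF libraries 4449, 4891 and 4938. Klf4 took 7.86 to 32.8% in KPF and 5.33, 30.5 and 23.6% in the same KPYYF libraries. The largest shares of these genes were thus in different libraries, and Klf4 took more than Klf6 only in KPF library 4601 and KPYYF library 4891. Klf2 took 0.452% in KPF library 4269 and 3.31 to 8.43% in all others.

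**Figure D3:**
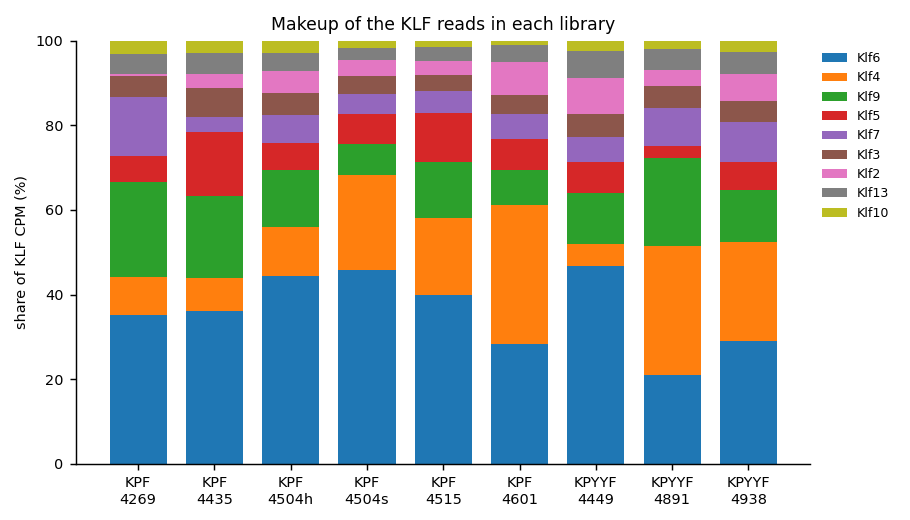
Share of the summed CPM of the 9 detected KLF genes taken by each gene (stacked bars, percent) in each library. Klf6 has the widest band in most bars, and the Klf4 band is narrowest in KPYYF library 4449 at 5.33%.

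The profile across the 9 libraries was compared with those of 8873 other genes with a mean of at least 10 CPM for the 3 members with the widest spread. The measure was the root mean square difference of log2 CPM, after each gene was centred on its mean. Nearest to Klf5 were Nbeal2 (0.25), Vps37b (0.32) and Ezr (0.34), with log2 fold changes of -1.36, -1.35 and -0.77 beside the -1.38 of Klf5. These genes were picked by their profile over the same libraries, so similar fold changes follow from the choice. Nearest to Klf4 were Galnt10 (0.33), Arf5 (0.36) and Fuca2 (0.37). Klf2 had less close neighbours, with Wdr81 at 0.50, Tapbp at 0.54 and Tufm at 0.57.

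**Figure D4:**
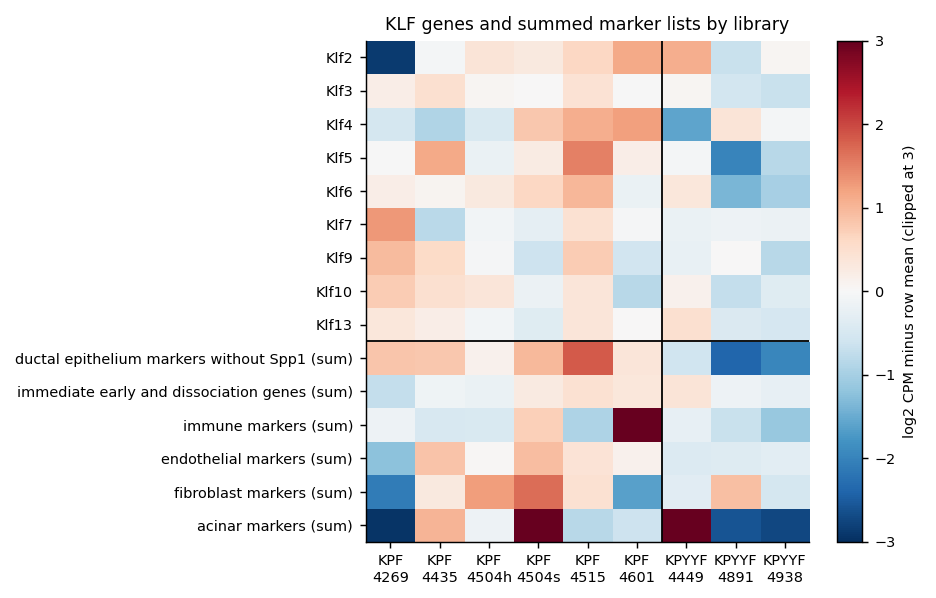
Log2 CPM of each KLF gene, and of the summed CPM of 6 lists of cell type and early response genes, in each library (columns) minus the row mean; red is above the mean, blue below, with colours clipped at 3. Klf5 and Klf6 are blue in KPYYF libraries 4891 and 4938, as are the ductal epithelium markers, and the immune row is darkest in KPF library 4601.

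The rest of the family was sparser. Of 16 other KLF and Sp genes, which share the zinc finger type, 7 were tested and none passed an adjusted or an unadjusted p of 0.05, which 1.1% and 16.1% of all genes did. Klf11, the close relative of Klf10, had the lowest value, with 22.0 to 85.7 CPM in KPF, against 41.2, 6.67 and 10.7 CPM for KPYYF libraries 4449, 4891 and 4938, and a log2 fold change of -1.24 ± 0.65 (SE, adjusted p = 0.374, edgeR quasi-likelihood, Benjamini-Hochberg). Its 2 low KPYYF libraries and its KPYYF library 4449 inside the KPF range were the pattern seen for Klf5, Klf6 and Klf3. Klf15 was highest by estimate (log2 fold change 1.29 ± 1.51, SE) at levels of at most 12.0 CPM. Klf16 (-0.14), Sp1 (-0.36), Sp2 (-0.70), Sp3 (0.10) and Sp4 (-0.10) lay between these log2 fold changes. Sp1, the most abundant of them, had 106 to 218 CPM in KPF and 155, 95.8 and 151 CPM in KPYYF. Klf1, Klf8, Klf14, Klf17, Sp5, Sp6, Sp7 and Sp8 had 1 to 82 reads over all libraries and Sp9 had none.

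Genes known as targets of KLF factors were read beside them. Of 26 such genes, 25 were tested, and 19 had a log2 fold change under 0, where 53.3% of all genes did. The median was -0.90, against -0.07 over all genes. Only the adhesion gene Cdh1, which Klf4 is known to activate, passed the adjusted threshold, as 1.1% of all genes did. Its log2 fold change was -2.92 (adjusted p = 0.0351, edgeR quasi-likelihood, Benjamini-Hochberg). Cdh1 had 333 to 2105 CPM in KPF, and 245, 98.3 and 94.0 CPM in KPYYF libraries 4449, 4891 and 4938. The groups did not overlap, as in 9.1% of all genes. The extremes of the list did not pass: the cell cycle inhibitor gene Cdkn1c had the highest log2 fold change (2.12), and the keratin gene Krt4 was lowest, with 0.0973 to 39.1 CPM in KPF and 2, 1 and 0 reads in KPYYF libraries 4449, 4891 and 4938. Several of these targets are also markers of ductal epithelium, so the lists are not independent.

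Among genes known to carry out or induce KLF activity, only the deleted Yap1 passed the adjusted threshold, which 1.1% of all genes did. Of 17 cofactors and turnover factors, such as the CtBP and Sin3 corepressors and the ubiquitin ligases Wwp1 and Fbxw7, none passed. Of these 17, 10 were above 0, where 6587 of all 14105 genes tested were. Their median log2 fold change was 0.10, against -0.07 over all genes. The acetyltransferase gene Kat2a was highest (1.38) and the deacetylase gene Hdac1 lowest (-1.36). Of 17 known inducers, which include the Mef2 factors, Smads and the glucocorticoid receptor, 11 were above 0 with a median of 0.21, which was 0.056 without KPYYF library 4891. Of 21 tested immediate early and dissociation genes, none passed, the median was -0.27, and the extremes were Hspa1a (1.87) and Jund (-1.34). The sums of the latter list overlapped between groups, at 6326 to 14207 CPM in KPF, with 13561, 9399 and 8748 CPM in KPYYF libraries 4449, 4891 and 4938.

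Markers of ductal epithelium and of other cell types gave the following values beside the KLF levels, and their part in those levels was not tested. Per the study, epithelial differentiation genes were lower and EMT markers higher in the Tm+Yap- PDAC cells themselves. The ductal and fibroblast lists may therefore also reflect the PDAC cells. Of the ductal epithelium markers, Cdh1, Krt18 (log2 fold change -2.49, adjusted p = 0.0141) and Muc1 (-4.11, adjusted p = 0.0422) passed the edgeR quasi-likelihood test after Benjamini-Hochberg adjustment, and the secreted phosphoprotein gene Spp1 was highest (0.75). All 11 tested immune markers were under 0, where 53.3% of all genes were. Their median log2 fold change was -2.15, Ptprc was the highest (-0.80), and none passed. Without KPF library 4601 this median was -0.67. Of the list, the T and B cell markers Cd3e, Cd3g and Cd79a had at most 55 reads in all and were not tested. Fibroblast markers summed to 421 to 5694 CPM in KPF and 1408, 3338 and 1246 CPM in KPYYF, with Pdgfra highest (2.90) and Postn lowest (-4.78). Acinar markers summed to 71.2 to 21528 CPM in KPF, highest in 4504s, and to 6637, 91.0 and 82.5 CPM in KPYYF libraries 4449, 4891 and 4938, with extremes Pnlip (1.93) and Ctrb1 (-1.80). Among endothelial markers, Ramp2 had the highest log2 fold change (0.98) and Vwf the lowest, with at most 12.1 CPM in KPF and 0 reads in KPF library 4269 and KPYYF libraries 4449 and 4891.

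The directions of the members were compared under 16 alternatives of tool, scaling, filter and library choice. The log2 fold change stayed under 0 in all 16 for Klf3, Klf4, Klf5, Klf6, Klf9 and Klf10, and changed sign in at least 1 for Klf2, Klf7 and Klf13. Klf5 ran from -1.93 to -1.02 with an unadjusted p under 0.05 in 15 of 16, and Klf6 from -1.55 to -0.56 with 8 of 16. With 4504h and 4504s summed, the unadjusted p of the edgeR quasi-likelihood test was 0.0130 for Klf5 and 0.0634 for Klf6. Adjusted p values ran from 0.0528 to 0.381 for Klf5 and from 0.0542 to 0.576 for Klf6. The lowest came from the DESeq2 Wald test for Klf5 and from the fit without KPYYF library 4449 for Klf6.

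**Figure D5:**
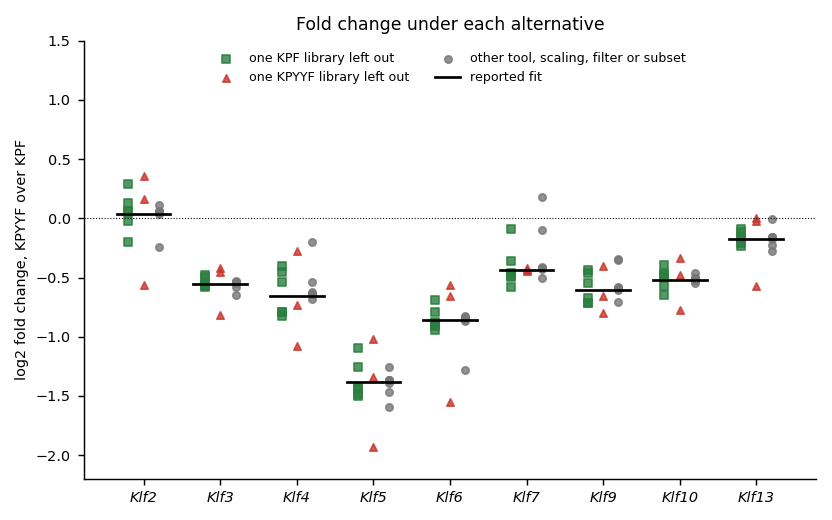
Log2 fold change of KPYYF over KPF (vertical axis) for each KLF gene in the reported fit (black line) and under 16 alternatives: 1 KPF library left out (green squares), 1 KPYYF library left out (red triangles), and another tool, scaling, filter or subset (grey circles). The points of Klf5 lie between -1.93 and -1.02, while those of Klf2 lie on both sides of 0.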

How the data were processed

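RNA was isolated from sorted PDAC cells and made into Lexogen QuantSeq 3′ Forward libraries. The deposited files hold raw read counts per Ensembl gene, and the authors' processing notes name STAR, HTSeq and mm10, without versions. The methods text describes BeadChip hybridization instead, and the annotation is not given in the sources used here. Symbols and coordinates came from GENCODE M21 (47224 of 47643 genes matched). Genes with at least 100 counts in all were normalized by TMM and tested with edgeR 4.0.16 (quasi-likelihood, robust, no covariates, R 4.3.3), with Benjamini-Hochberg adjustment over 14105 genes. Standard errors (SE) were taken from the F statistic and the log2 fold change. Genes took 38.5 to 42.0% of reads in KPF and 37.3 to 38.2% in KPYYF. Reads without a unique alignment took 43.8 to 48.5% in KPF and 49.2 to 53.4% in KPYYF. These shares are of the reads listed in the counts, which include 0 unaligned reads. Without molecular identifiers intervals on reads cover counting error only. All 10 members and all tested KLF and Sp genes were named, and from the other 9 lists, the genes past the adjusted threshold and both extremes. The members and lists were chosen with earlier results of these data known. Sp genes without a test, Cd3e, Cd3g and Cd79a were named after their values were seen. Alternatives were DESeq2 1.42.0, voom of limma 3.58.1 with sample quality weights, RLE and upper quartile scaling, no filter, 4504h and 4504s summed, libraries with high Xist, and each library left out. The tools were tested on simulated counts. The Cut&Tag and human data of the study were not analysed here. An allele shared by all mice and the extremes of some lists are not reported here.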

Additional observations from a re-analysis of the deposited data

Results flagged for a closer look

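The log2 CPM of Klf2 in KPF library 4269 lay far below the other 5 KPF libraries: its gap to the next library was 0.698 of the group's range. The same check was made for 9 genes in the KPF group, and chance flags about 1 in 20. The level rests on 142 reads in library 4269, against 941 to 1524 in the other KPF libraries.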

How the results depend on the processing

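No member passed an adjusted p of 0.05 in any of the 16 alternatives. The number lower at an unadjusted p of 0.05 with a change of more than 2-fold was 1, and it became 2 (Klf5 and Klf6) with limma-voom. Over the fits without 1 library it ran from 0 to 2, with 0 without KPYYF library 4891 and 2 without 4449. The log2 fold change of Klf2 turned to -0.24 with limma-voom, and without 1 library it ran from -0.56 to 0.36. That of Klf7 turned to 0.18 with the high Xist libraries alone, and that of Klf13 ran from -0.57 to 0.0019 without 1 library. Of the list medians, 3 also changed sign over these fits: cofactors ran from -0.017 (without KPYYF library 4449) to 0.11, immediate early genes from -0.72 to 0.073 (without 4938), and acinar markers from -5.51 (without 4449) to 2.81 (without KPF library 4504s). The cause was not tested. With all genes kept regardless of their counts, the median was -0.31 over all genes and -0.55 over the members. The gap between the lowest KPF and the highest KPYYF sum of KLF CPM was 18.7 CPM and turned to -230 CPM without TMM factors, an alternative chosen after seeing the data. No paired analysis was possible because the groups come from different mice, and the labels give no number that ties a KPF library to a KPYYF library. Each tested member had at least 142 reads in every library.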
